A study of Mus musculus with 15 samples.

Results

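Fatty acid oxidation genes and genes known as targets of PPAR alpha were followed through 4 days of RANKL in the epithelium of the mouse small intestine. The set holds 30 genes, listed by their function with earlier results of these data known. All 30 were found among the 19938 genes measured. They are Ppara itself, Creb3l3, the enzymes that carry fatty acids into mitochondria and break them down, peroxisomal enzymes and a few targets of other function. In controls they were read at mean log2 intensities from 6.71 for Acaa1b to 12.54 for Hadh.

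Total RNA was measured on 15 Affymetrix arrays, 3 in each of 5 groups. All samples came from wild-type BALB/c mice, 10 weeks old, and were small-intestinal epithelial cells taken off the tissue with needles after 10 min in 30 mM EDTA. The control group received no agent. The other groups received a fusion of GST and RANKL, the TNF-family ligand of the receptor RANK, into the peritoneum 2 times a day for 1, 2, 3 or 4 days. No group that received GST alone or a vehicle is among the samples, so injection, GST and RANKL cannot be told apart in a comparison with control. Whether the arrays of 1 group stem from different mice is not said in any source, and the p-values therefore reflect only the spread among these samples, which may be technical. The samples are bulk tissue, in which fewer cells of a type and less RNA per cell cannot be told apart.

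PPAR alpha is a nuclear receptor that fatty acids and their derivatives activate. It binds DNA as a pair with the retinoid X receptor and raises the transcription of genes for fatty acid uptake, oxidation and ketone production, and in the small intestine it is known to respond to dietary fat. In β-oxidation, long-chain fatty acids enter mitochondria bound to carnitine and are shortened by a repeated cycle of dehydrogenation, hydration, a second dehydrogenation and thiolysis, while peroxisomes shorten the longest chains.

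Median intensity per array ran from 147 to 167. Replicate 2 of RANKL day 1 had the highest median and the narrowest deposited spread. Its interquartile range was 1.95 on the log2 scale against 2.26 to 2.55 on the other arrays. Some results that turn on it are also given without it. The response to RANKL was checked with Spib, a transcription factor of M cells, whose mean log2 intensity was 6.65 in controls, 11.22 on day 1 and 9.11 on day 4. Summed intensity of 14 enterocyte markers overlapped the controls on every day, at 96895 to 117834 in controls, 94984 to 122523 on day 1, 114126 to 121241 on day 2, 102937 to 117554 on day 3 and 106327 to 127092 on day 4. One of these markers, Apoa4, was called higher on day 2 and none was called on the other days. That sum rests mostly on the brightest markers, such as Anpep and Apoa1, and on day 3 the brush border enzymes Alpi and Treh had all arrays below all controls, at log2 differences of -0.47 and -0.79 (adjusted p of 0.0823 and 0.128). Alpi was also below all controls on day 2. Apoa4 lay the other way on day 3, with all arrays above all controls, at 13.56, 13.69 and 13.47 against 12.98, 12.91 and 13.21. The median log2 difference of the 14 was -0.08, 0.11, -0.03 and 0.11 on days 1 to 4. Summed intensity of 8 M cell markers was 1677 to 1905 in controls, 7868 to 10499 on day 1, 12898 to 14718 on day 2, 8773 to 13492 on day 3 and 4785 to 7388 on day 4. Summed intensity of 9 crypt and cycling markers was 6080 to 7165 in controls, 7314 to 8391 on day 1, 5532 to 10636 on day 2, 9976 to 10969 on day 3 and 8533 to 9816 on day 4. Tuft cell markers were called higher for 0, 3, 5 and 7 of 8 on days 1 to 4, with a summed intensity of 785 to 857 in controls and 1389 to 1646 on day 4. Enteroendocrine markers were called higher for 0, 0, 1 and 4 of 8, with sums of 3921 to 4379 in controls and 6505 to 7152 on day 4. Of 8 markers of intraepithelial lymphocytes, all lay below 0 on day 4, with a median of -0.55 and none called, and the sum was 6267 to 8196 in controls and 4253 to 5852 on day 4. From day 2 to day 4, 7 of 7 goblet markers and 5 of 5 Paneth markers were higher, with medians of 0.23 and 0.35 and none called. The goblet sum was 64810 to 67420 in controls, 54582 to 60569 on day 2 and 66334 to 71099 on day 4. The Paneth sum was 22291 to 26230, 13557 to 21204 and 21261 to 24065. The lowest day 2 sums of Paneth markers (13557) and of crypt and cycling markers (5532) were both those of replicate 3. That array had the lowest day 2 value of every marker in these 2 lists. The part of any of these cell types in the changes described next was not tested.

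Most of the 30 genes were lower than in controls on the first 3 days of RANKL and at or slightly above the control level on day 4, and few of the single differences passed the test. On day 1, 24 of 30 had a negative log2 change, as had 51.8% of all 19938 genes. The median was -0.26 against -0.01 over all genes. The same number, 24, lay below 0 on day 2, against 56.7% of all genes, with a median of -0.20 against -0.02. On day 3, 23 lay below 0, against 53.2% of all genes, with a median of -0.16 against -0.01. On day 4, 9 lay below 0, against 47.9% of all genes, and 21 above, with a median of 0.06 against 0.01. Single arrays shifted these medians, which without control replicate 3 were -0.17 on day 1, -0.09 on day 3 and 0.10 on day 4, and 0.03 on day 4 without control replicate 1. Without replicate 3 of the respective day the median was -0.06 on day 3 and -6.83e-04 on day 4.

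**Figure D1:**
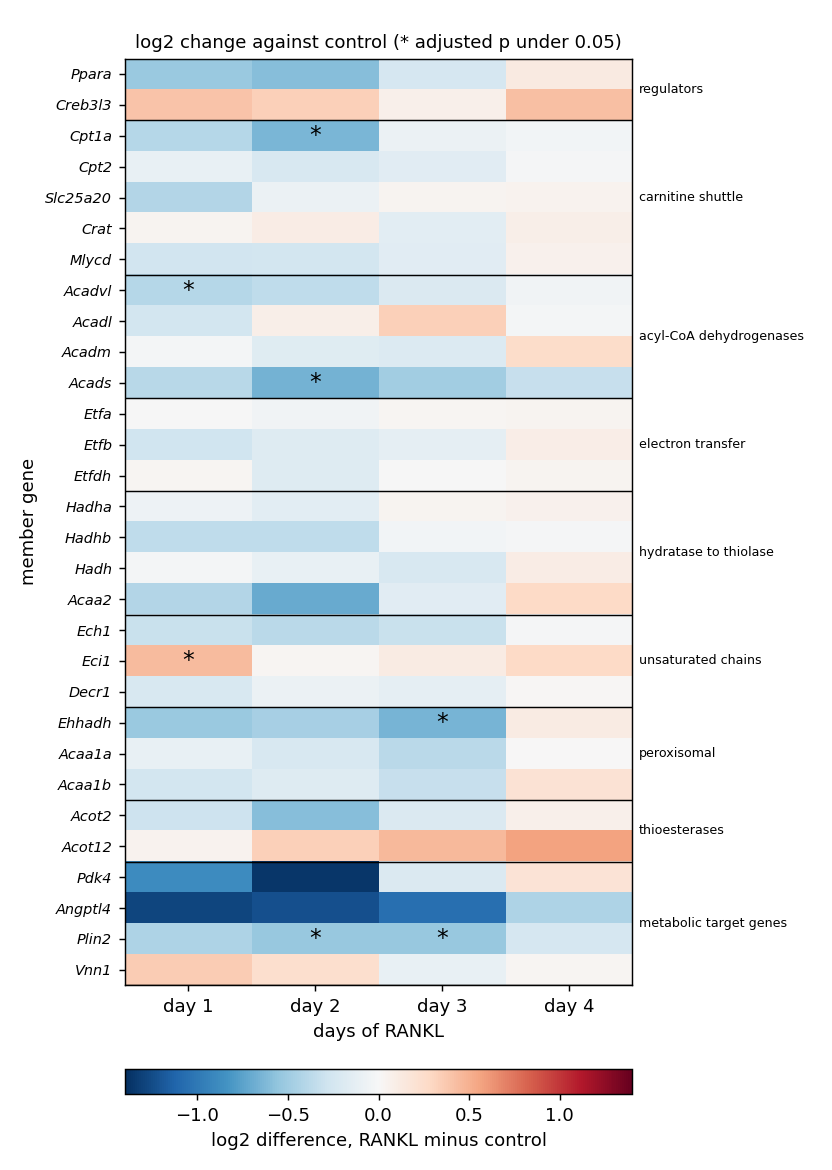
Fitted log2 change of each of the 30 genes against control on days 1 to 4 of RANKL, ordered by the role of the gene product, with blue for lower and red for higher than control. Stars mark the 7 differences at a limma adjusted p under 0.05; the first 3 columns are mostly blue and the fourth is mostly pale or red.

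A gene was called at a Benjamini-Hochberg adjusted p under 0.05 over all 19938 genes in limma's moderated test. On day 1, 1 of the 30 was called lower (Acadvl) and 1 higher (Eci1), where 3.94% of all genes were called, 1.94% lower and 2.00% higher. On day 2, 3 were called lower (Cpt1a, Acads and Plin2) and none higher, against 1.05% of all genes lower, 1.52% higher and 2.57% in either direction. On day 3, 2 were called lower (Ehhadh and Plin2) and none higher, against 1.24% lower, 1.72% higher and 2.96% in either direction. On day 4 limma called none of the 30, where 0.908% of all genes were called, 0.818% higher and 0.0903% lower. In the same test, 14, 14, 9 and 2 of the 30 had an unadjusted p under 0.05 on days 1 to 4. Over all 19938 genes these numbers were 2978, 2370, 3226 and 1927. The counts of calls moved with single arrays, also over all genes. Without replicate 2 of day 1, 1188 of all genes were called on day 3 and 336 on day 4, against 590 and 181 with every array. The small counts among the 30 moved as well. The day 1 count of 2 became 0 without replicate 1 or 2 of day 1 or control replicate 2 or 3, became 1 without control replicate 1, and 4 without replicate 3 of day 1 or replicate 3 of day 3. The day 2 count of 3 became 0 without control replicate 1, and 1 without replicate 3 of day 1, replicate 1 or 2 of day 2, replicate 1 of day 4 or control replicate 3. The day 3 count of 2 became 0 without any 1 of 8 arrays, namely replicate 3 of day 1, replicate 1 of day 2, replicates 2 and 3 of day 3, replicate 1 of day 4 and each control, and 1 without replicate 1 of day 1, replicate 2 or 3 of day 2 or replicate 1 of day 3.

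The groups also separated more often downward than upward on the first days. All 3 RANKL arrays lay below all 3 controls for 12 of the 30 genes on day 1, against 8.51% of all genes, for 13 on day 2, against 9.44%, and for 8 on day 3, against 9.90%. On day 4 this held for 0 of the 30, against 6.16%. All 3 RANKL arrays lay above the controls for 1 gene on day 1 (background 6.08%), 2 on day 2 (8.09%), 1 on day 3 (12.3%) and 4 on day 4 (12.1%). Without replicate 2 of day 1, which leaves 2 arrays on day 1, 15 of the 30 lay below all controls on that day, against 14.6% of all genes.

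**Figure D2:**
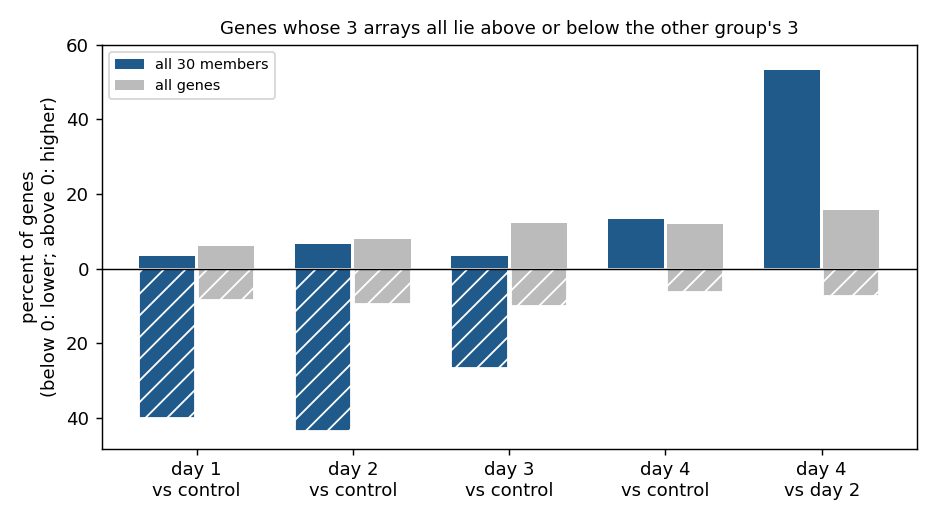
Percent of genes whose 3 arrays all lay below (hatched bars, drawn downward) or above (solid bars, drawn upward) those of the other group, for the 30 genes (blue) and all 19938 genes (grey). The blue bars reach furthest down on days 1 and 2 and furthest up for day 4 against day 2.

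The median deviation of the 30 genes from their control means was then taken on each array. It was -0.28, -0.31 and -0.09 on the log2 scale on the day 1 arrays, -0.29, -0.24 and -0.14 on day 2, and -0.15, -0.04 and -0.24 on day 3. On day 4 it was 0.04, 0.01 and 0.08, and on the control arrays -0.07, -0.09 and 0.11. All day 2 arrays lay below all controls by this measure, whereas replicate 3 of day 1 and replicate 2 of day 3 did not, and the day 4 arrays lay within the range of the controls. Over all genes the same median ran from -0.06 to 0.03.

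**Figure D3:**
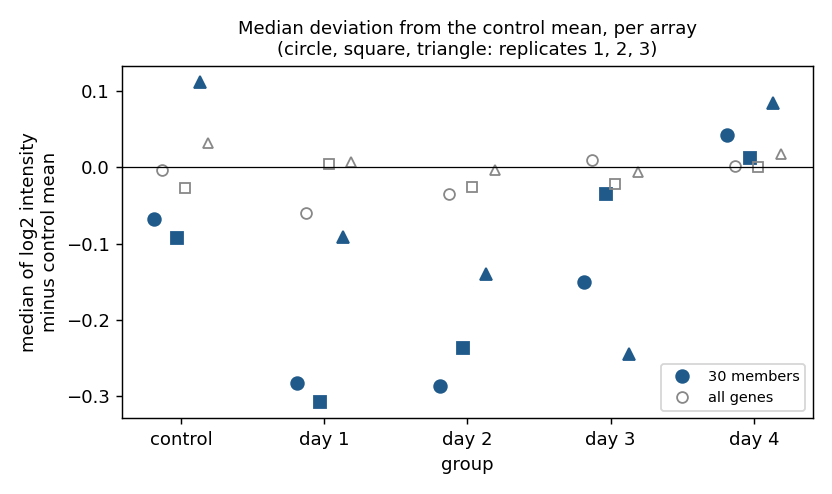
Median of log2 intensity minus the control mean on each of the 15 arrays, for the 30 genes (filled) and for all genes (open), with circles, squares and triangles for replicates 1, 2 and 3. The filled symbols of day 2 lie at -0.29 to -0.14 and those of day 4 at 0.01 to 0.08, while the open symbols stay near 0.

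Promoters of the set were searched for the element that PPAR alpha and the retinoid X receptor are known to bind, a pair of half-sites spelled AGGTCA and AGGTCA with 1 base of any kind (N) between them. RefSeq promoter sequences (GRCm38.p6) were at hand for 25 of the 30 genes, with 26 start sites; Acaa2, Decr1, Vnn1, Crat and Angptl4 had no entry. In the 250 bases before the start, on either strand, 4 of the 26 start sites (15.4%) held a run matching at least 10 of the 12 fixed letters, against 1063 of 32851 start sites of all genes (3.24%). The 4 matches are shown because they are the candidate elements of the set, each within 53 bases of the sense strand of its gene, 5′ to 3′, with the match in capitals.
Plin2, chr4:86670252-86670304, minus strand: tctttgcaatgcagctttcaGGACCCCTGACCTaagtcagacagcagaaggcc
Etfa, chr9:55512288-55512340, minus strand: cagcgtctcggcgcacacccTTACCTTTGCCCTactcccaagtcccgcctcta
Creb3l3, chr10:81092768-81092820, minus strand: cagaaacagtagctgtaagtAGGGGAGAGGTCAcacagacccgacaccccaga
Acot12, chr13:91741391-91741443, plus strand: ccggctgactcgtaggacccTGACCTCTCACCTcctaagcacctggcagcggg
The match in Acot12 held 11 of the 12 letters and the others held 10. The centre of the match lay 219 bases before the start in Plin2, 71 in Etfa, 203 in Creb3l3 and 104 in Acot12, and that of Creb3l3 was the only match in the sense orientation. Of these 4 genes, Plin2 was called lower on days 2 and 3, and Etfa, Creb3l3 and Acot12 were called on no day. A match is a string of letters and not a measured binding site, and enhancers outside the 250 bases were not searched.

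Among the regulators, neither Ppara nor Creb3l3 passed the test on any day. Ppara (probe set 10425987) was read at log2 intensities of 9.82, 9.67 and 9.94 in controls, 8.76, 9.45 and 9.66 on day 1, and 9.33, 9.29 and 9.01 on day 2. It was read at 9.80, 9.86 and 9.06 on day 3 and at 10.07, 10.00 and 9.71 on day 4. All day 1 and day 2 arrays lay below all controls, replicate 3 of day 3 lay among the low arrays, and day 4 overlapped the controls. The log2 difference from control was -0.52 ± 0.23 on day 1 (SE; adjusted p = 0.301), -0.60 ± 0.23 on day 2 (0.266), -0.23 on day 3 (0.704) and 0.12 on day 4 (0.906), with n = 3 arrays per group here and in each comparison that follows. Creb3l3, a membrane-bound transcription factor that acts with PPAR alpha in lipid metabolism, had positive differences of 0.39, 0.34, 0.07 and 0.42 on days 1 to 4 (adjusted p of 0.449, 0.635, 0.917 and 0.580). Its day 2 arrays lay above all controls, at 10.94, 10.97 and 11.01 against 10.43, 10.70 and 10.78.

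Cpt1a, which encodes the carnitine palmitoyltransferase of the outer mitochondrial membrane, the rate-limiting step of fatty acid entry, fell on day 2. The log2 intensities of its probe set (10460157) were 11.59, 11.29 and 11.42 in controls, 11.00, 10.88 and 11.22 on day 1, and 10.96, 10.87 and 10.56 on day 2. They were 11.36, 11.44 and 11.26 on day 3 and 11.28, 11.36 and 11.54 on day 4. The arrays of days 1 and 2 lay below every control, and those of days 3 and 4 overlapped the controls. The means were 11.44 ± 0.15 in controls and 10.80 ± 0.21 on day 2 (SD), a difference of -0.64 ± 0.12 (SE; 95% confidence interval -0.90 to -0.38; 1.56-fold lower; adjusted p = 0.00975). On day 1 the difference was -0.40 (adjusted p = 0.0886), and on days 3 and 4 it was -0.08 and -0.04. Cpt1a was also called by limma's F test over the 4 days (adjusted p = 0.0193), as were Ehhadh and Acaa2, where 3.60% of all genes were called. The day 2 call was lost without control replicate 1 (adjusted p = 0.0516) and held without each of the other 14 arrays.

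The other 4 genes of the carnitine shuttle were called on no day. Cpt2, the transferase of the inner membrane, had differences of -0.10, -0.23, -0.16 and -0.02 on the log2 scale on days 1 to 4, and its day 2 and day 3 arrays lay below all controls. Slc25a20, the carnitine-acylcarnitine carrier, was lowest on day 1 at -0.41 (adjusted p = 0.299), with replicate 3 of that day at 10.57 among the controls (10.54 to 10.71). Mlycd, the malonyl-CoA decarboxylase that lifts the inhibition of Cpt1a, had -0.27, -0.25, -0.16 and 0.06. Crat, the short-chain carnitine acetyltransferase, stayed between -0.14 and 0.10.

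The acyl-CoA dehydrogenases carry out the first oxidation of the cycle, each for a range of chain lengths, and 2 of the 4 passed the test on 1 day each. Acadvl, for very long chains (probe set 10387768), was read at 9.28, 9.35 and 9.42 in controls, 8.81, 8.95 and 9.12 on day 1, and 9.01, 8.82 and 9.18 on day 2. Its arrays stood at 9.16, 9.17 and 9.11 on day 3 and at 9.24, 9.36 and 9.31 on day 4. No array of days 1 to 3 reached the lowest control. It fell on day 1 by 0.39 on the log2 scale (SE 0.09; 1.31-fold lower; adjusted p = 0.0303), and the difference was -0.35 on day 2 (0.0732), -0.21 on day 3 (0.296) and -0.05 on day 4 (0.916). The day 1 call was lost without replicate 1 of day 1 (adjusted p = 0.113) or replicate 2 (0.0545) and without control replicate 1 (0.0508), 2 (0.0834) or 3 (0.126). It was also lost with the values as deposited (0.0729), with arrays centred on their medians (0.0885) and in a fit of only these 2 groups (0.179).

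Acads, for short chains (probe set 10532926), was read at 10.25, 9.61 and 9.91 in controls, 9.36, 9.71 and 9.52 on day 1, and 9.19, 9.27 and 9.33 on day 2. The next days gave log2 intensities of 9.66, 9.45 and 9.20 on day 3 and 9.66, 9.38 and 9.77 on day 4. Day 2 was the only day whose arrays all lay below all controls, and its controls had the highest SD of the 4 dehydrogenases, 0.32. It fell on day 2 by 0.66 (SE 0.16; 1.58-fold lower; adjusted p = 0.0438), and the differences on days 1, 3 and 4 were -0.39, -0.48 and -0.32 (0.244, 0.13 and 0.560). The call held without replicate 1 or 2 of day 1, replicate 1 or 3 of day 3, replicate 2 or 3 of day 4 and control replicate 2, and its adjusted p was 0.0590 to 0.170 without each of the other 8 arrays and 0.0744 in a fit of only the 2 groups.

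Acadm and Acadl, for medium and long chains, were called on no day. Acadm had differences of -0.03, -0.17, -0.19 and 0.26, and all its day 4 arrays, at 10.80, 10.67 and 10.86, lay above the controls at 10.30, 10.63 and 10.63 (adjusted p = 0.452). Acadl had -0.25, 0.08, 0.34 and -0.03, and was the one dehydrogenase whose day 3 arrays lay above all controls, at 10.42, 10.55 and 10.71 against 10.31, 9.99 and 10.36 (adjusted p = 0.491).

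Electrons from these dehydrogenases pass through the electron transfer flavoprotein, whose subunits are Etfa and Etfb, to its dehydrogenase Etfdh. None of the 3 was called against control. Etfb (probe set 10552418) was read at 11.20, 11.21 and 11.20 in controls, 10.94, 10.77 and 11.04 on day 1, and 10.98, 11.04 and 11.03 on day 2. The values were 11.16, 11.18 and 10.90 on day 3 and 11.30, 11.25 and 11.33 on day 4. Every array of days 1 to 3 was lower than every control and every day 4 array was higher, with differences of -0.28 (adjusted p = 0.0806), -0.18 (0.410), -0.12 (0.543) and 0.09 (0.790). Etfa, which holds a motif match in its promoter, stayed between -0.05 and 0.04 on the 4 days, and Etfdh between -0.18 and 0.03.

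The later steps of the cycle are run by the trifunctional protein of Hadha and Hadhb, by Hadh for shorter chains and by the thiolase Acaa2. None of the 4 was called against control, and Acaa2 was called in the F test (adjusted p = 0.0327). Acaa2 (probe set 10456699) was read at 10.49, 10.25 and 10.59 in controls, 9.90, 10.01 and 10.20 on day 1, and 9.71, 9.87 and 9.63 on day 2. Its log2 intensities were 10.26, 10.76 and 9.83 on day 3 and 10.74, 10.84 and 10.60 on day 4. Days 1 and 2 lay below all controls, day 4 lay above them, and the day 3 arrays spanned nearly the whole range, with an SD of 0.47. The differences were -0.41 (adjusted p = 0.291), -0.71 ± 0.18 (SE; 0.0558), -0.16 (0.755) and 0.28 (0.683). The F test call held without replicate 2 or 3 of day 1, any RANKL day 3 array or control replicate 2, and its adjusted p was 0.0547 to 0.0957 without each of the other 9 arrays. The day 2 difference was called without replicate 2 of day 3 (0.0105) or replicate 3 (0.0143).

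Hadha and Hadhb encode the subunits of 1 enzyme, and in GRCm38.p6 their start sites face away from each other with 272 bases between them. Hadhb was below all controls on days 1 and 2, at 10.07, 9.99 and 10.38 and at 10.05, 10.16 and 10.26 against 10.44, 10.42 and 10.66, with differences of -0.36 (adjusted p = 0.106) and -0.35 (0.149). Hadha had -0.07 (0.863) and -0.15 (0.711) on the same days, and its arrays overlapped the controls on all 4 days. Hadhb was read by probe set 10474379 and Hadha by probe set 10528929. Whether the Hadhb probe set reads RNA of the locus beside Hadha was not tested. Nor was it tested whether the pair differed in their change. Hadh stayed between -0.23 and 0.11.

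**Figure D4:**
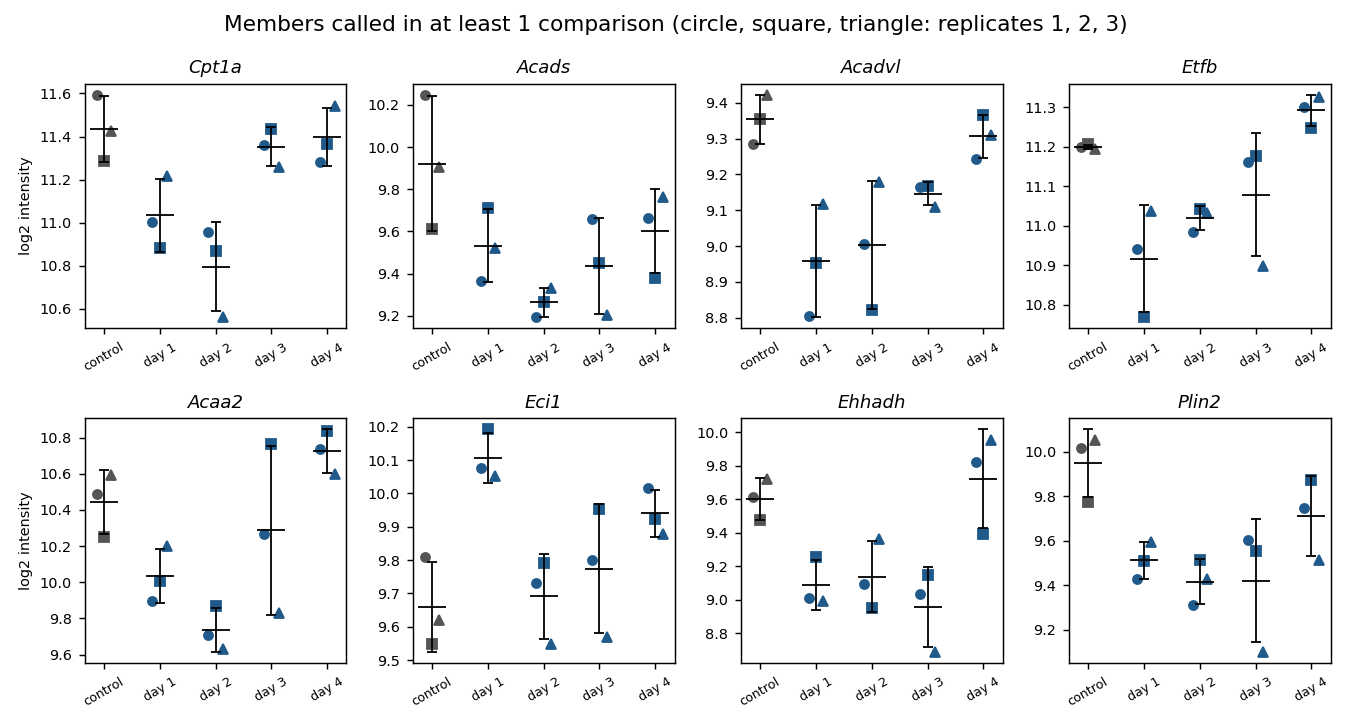
Log2 intensity on every array of the 8 genes called in at least 1 comparison, by group, with circles, squares and triangles for replicates 1, 2 and 3, a line at the group mean and bars of 1 SD (n = 3). Cpt1a, Acads, Acaa2 and Plin2 are at their lowest mean on day 2 or day 3, Eci1 is highest on day 1, and the axes differ between genes and do not start at 0.

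Fatty acids with double bonds need auxiliary enzymes, and of these Eci1 moved opposite to most of the set. Eci1, the mitochondrial enoyl-CoA isomerase (probe set 10442445), was read at 9.81, 9.55 and 9.62 in controls and at 10.08, 10.19 and 10.05 on day 1. The later arrays gave 9.73, 9.79 and 9.55 on day 2, 9.80, 9.95 and 9.57 on day 3 and 10.02, 9.92 and 9.88 on day 4. The arrays of days 1 and 4 lay above all controls and those of days 2 and 3 overlapped them. It rose on day 1 by 0.45 ± 0.10 (SE; 1.36-fold higher; adjusted p = 0.0249), and the differences on days 2 to 4 were 0.03, 0.11 and 0.28 (0.964, 0.668 and 0.358). The call was lost without replicate 1 of day 1 (adjusted p = 0.0602) or replicate 2 (0.0610) and without control replicate 2 (0.0959) or replicate 3 (0.0929), after median centring (0.116) or when only these 2 groups were fitted (0.102). Ech1, a dienoyl-CoA isomerase, had -0.31, -0.37 and -0.31 on days 1 to 3, with all arrays below all controls on each of them, and -0.02 on day 4; its smallest adjusted p against control was 0.115. Decr1, the dienoyl-CoA reductase, had -0.22, -0.08, -0.13 and 0.02.

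In peroxisomes, Ehhadh, the bifunctional enzyme of hydration and dehydrogenation and a classical PPAR alpha target, fell on day 3. Its probe set (10438575) gave log2 intensities of 9.61, 9.47 and 9.72 in controls, 9.01, 9.26 and 8.99 on day 1, and 9.10, 8.95 and 9.37 on day 2. It gave 9.04, 9.15 and 8.69 on day 3 and 9.82, 9.39 and 9.95 on day 4. The arrays of the first 3 days all lay below the controls, and the day 4 arrays lay on both sides of them. The differences were -0.52 on day 1 (adjusted p = 0.0949), -0.47 on day 2 (0.180), -0.65 ± 0.16 on day 3 (SE; 1.57-fold lower; 0.0425) and 0.12 on day 4 (0.861), and the F test gave 0.0294. The day 3 call held without replicate 1 or 2 of day 1, replicate 2 or 3 of day 2 and replicate 2 or 3 of day 4, and its adjusted p was 0.0541 to 0.196 without each of the other 9 arrays, 0.0610 for the values as deposited and 0.101 after centring on array medians. The F test call held without replicate 2 of day 1, replicate 2 or 3 of day 2, replicate 1 or 2 of day 3, replicate 2 of day 4 or control replicate 2, and its adjusted p was 0.0504 to 0.0890 without each of the other 8 arrays. The peroxisomal thiolases Acaa1a and Acaa1b were called on no day, with -0.38 (0.0931) and -0.32 (0.264) on day 3. These thiolases are close paralogs, and whether their probes read each other's RNA was not tested.

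The thioesterases release free fatty acids from coenzyme A, and neither Acot2 nor Acot12 was called. Acot2, the mitochondrial enzyme, had -0.29, -0.59, -0.21 and 0.07 on days 1 to 4 (smallest adjusted p 0.198), and its sequence is close to that of Acot1. Acot12, a cytosolic acetyl-CoA hydrolase with the closest motif match of the set, had 0.05, 0.33, 0.45 and 0.56, with an SE of 0.44 (smallest adjusted p 0.702). Its arrays ranged from 9.48 to 11.05 within day 3 alone.

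Of the metabolic targets, Plin2, which coats lipid droplets, fell on days 2 and 3. Plin2 (probe set 10514221) was read at 10.01, 9.77 and 10.05 in controls, 9.43, 9.51 and 9.60 on day 1, and 9.31, 9.51 and 9.43 on day 2. Log2 intensities were 9.60, 9.56 and 9.10 on day 3 and 9.75, 9.87 and 9.52 on day 4. No array of days 1 to 3 reached the lowest control, and day 4 overlapped the controls. The difference was -0.43 on day 1 (adjusted p = 0.0921), -0.53 ± 0.13 on day 2 (SE; 1.44-fold lower; 0.0498), -0.53 ± 0.13 on day 3 (0.0482) and -0.24 on day 4 (0.633). The day 2 call held without replicate 2 of day 1, replicate 1 or 3 of day 3, replicate 3 of day 4 or control replicate 2, with an adjusted p of 0.0508 to 0.205 without each of the other 10 arrays, 0.101 for the values as deposited, 0.178 for median centring and 0.0505 for an offset of 16 in the log. The day 3 call held without replicate 2 of day 1, replicate 1 of day 3 or replicate 2 or 3 of day 4, with 0.0503 to 0.185 without each of the other 11 arrays, 0.109 for the values as deposited, 0.190 for median centring and 0.114 for a fit of only the 2 groups.

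Angptl4 and Pdk4 had the most negative log2 differences of the set on days 1 and 2, with SDs of up to 0.89 between arrays of a group, and neither was called. Angptl4, a secreted inhibitor of lipoprotein lipase, was read at 9.18, 9.41 and 9.85 in controls, 7.53, 8.33 and 8.70 on day 1, and 8.48, 7.66 and 8.59 on day 2. Its later values were 8.56, 8.59 and 8.13 on day 3 and 9.20, 8.33 and 9.61 on day 4. All arrays of days 1 to 3 lay below all controls, with differences of -1.29 ± 0.35 (SE; 2.45-fold lower; adjusted p = 0.0611), -1.23 (0.101) and -1.05 (0.141), and day 4 gave -0.43 (0.765). The day 1 difference was called without replicate 3 of day 1 (0.0454) or replicate 2 of day 4 (0.0339). Pdk4, the kinase that switches off pyruvate oxidation, was read at 7.68, 8.03 and 9.18 in controls, 6.68, 7.16 and 8.41 on day 1, and 6.95, 6.71 and 7.15 on day 2. It was read at 7.99, 8.90 and 7.37 on day 3 and at 8.32, 8.22 and 8.93 on day 4. Day 2 was its only day below all controls, at -1.36 ± 0.47 (SE; 95% confidence interval -2.37 to -0.35; adjusted p = 0.196), and the other days gave -0.88, -0.21 and 0.20. Vnn1, the pantetheinase of the brush border, had 0.36, 0.23, -0.10 and 0.02 and was called on no day.

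The arrays of 1 day did not always agree on Ppara and these targets. On day 1, replicate 1 had the lowest value of Ppara (8.76), of Angptl4 (7.53) and of Pdk4 (6.68). On day 3, replicate 3 had the lowest value of the same genes, at 9.06, 8.13 and 7.37. The 3 genes did not share their lowest array in the other groups: on day 4 Ppara was lowest in replicate 3 (9.71), where Angptl4 (9.61) and Pdk4 (8.93) were highest, on day 2 Ppara was lowest in replicate 3 and the others in replicate 2, and in controls Ppara in replicate 2 and the others in replicate 1. These are the values of single arrays, and no relation between the genes was tested.

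**Figure D5:**
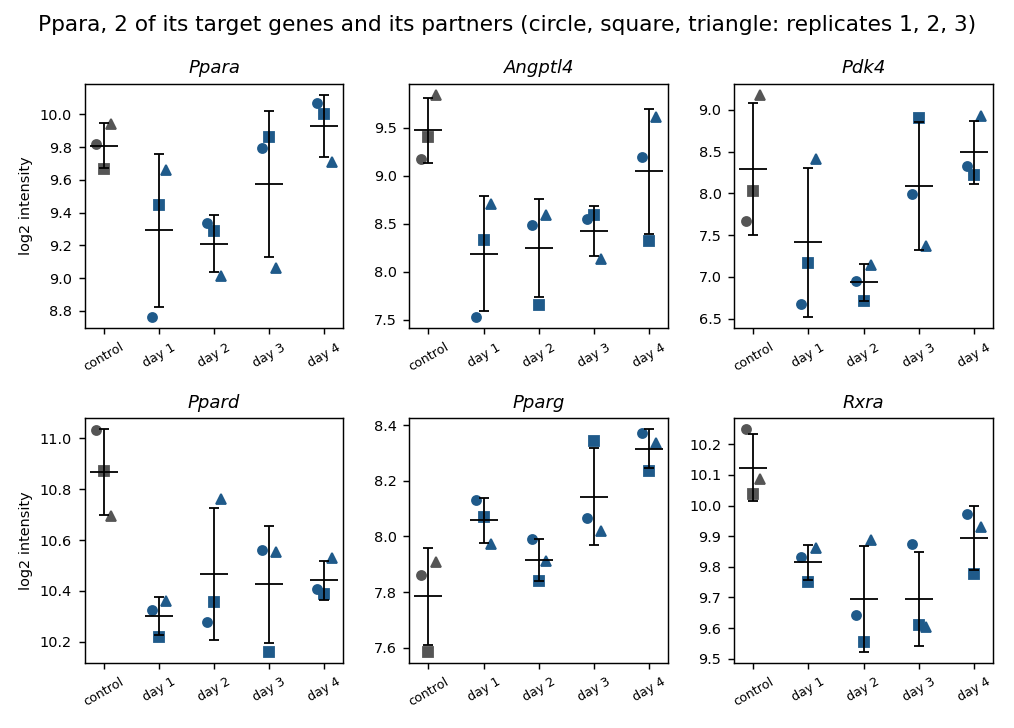
Log2 intensity of Ppara, of its target genes Angptl4 and Pdk4, and of Ppard, Pparg and Rxra on every array, by group, with circles, squares and triangles for replicates 1, 2 and 3, a line at the group mean and bars of 1 SD (n = 3). Angptl4 is below all controls on days 1 to 3, Rxra is below all controls on every day, and the axes differ between genes and do not start at 0.

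Most of the 30 genes were higher on day 4 than on the earlier days. Against day 2, 27 of the 30 genes were higher on day 4, as were 12052 of all 19938 genes. The median log2 difference was 0.28 against 0.03 over all genes. All 3 arrays of day 4 lay above all 3 of day 2 for 16 of 30, against 15.8% of all genes, and below them for 0, against 7.28%. Cpt1a and Acaa2 were called higher, where 0.487% of all genes were called higher and 0.722% in either direction. Acaa2 was higher by 0.99 ± 0.18 (SE; 95% confidence interval 0.60 to 1.37; 1.98-fold; adjusted p = 0.0222) and Cpt1a by 0.60 ± 0.12 (1.51-fold; 0.0361), each in 3 of 3 arrays. For Acaa2 the call was lost without replicate 1 of day 2 (0.0892), 2 (0.0534) or 3 (0.107) and without replicate 1 of day 4 (0.117) or 2 (0.0658). For Cpt1a it held without replicate 2 or 3 of day 1 or control replicate 1 or 2, and the adjusted p was 0.050 to 0.165 without each of the other 11 arrays and 0.0724 in a fit of only the 2 groups.

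Against day 1, 28 of the 30 were higher on day 4, as were 11091 of all 19938 genes. The median was 0.29 against 0.02 over all genes. The arrays of day 4 lay above those of day 1 for 11 of the 30, against 12.8% of all genes. Without replicate 2 of day 1 this held for 13, against 18.8%. Etfb was the 1 gene called, higher by 0.38 ± 0.08 (SE; 1.30-fold; adjusted p = 0.0434), where 1.32% of all genes were called and 1.04% called higher. That call held without replicate 3 of day 1 or any RANKL day 3 array, and its adjusted p was 0.0528 to 0.176 without each of the other 11 arrays, 0.0584 with a trended prior and 0.226 in a fit of only the 2 groups; the count was 3 without replicate 3 of day 1 and 2 without replicate 2 or 3 of day 3. Ehhadh was higher by 0.63 ± 0.16 (0.0693), and was called without replicate 2 of day 4 (0.030). Eci1 was the only gene whose day 4 arrays all lay below those of day 1, by 0.17 in the mean (adjusted p = 0.447), against 6.71% of all genes. Against day 3, 29 of 30 were higher on day 4, as were 10875 of all 19938 genes, the exception being Acadl at -0.37. The median was 0.22 against 0.01 over all genes. For 10 of the 30 all day 4 arrays lay above those of day 3, against 8.50% of all genes, and for 0 below, against 4.91%. Limma called none of the 30 in that comparison, where 0.0150% of all genes were called. Its unadjusted p was under 0.05 for 9 of the 30 and for 1088 of all 19938 genes. Acadm was called without replicate 2 of day 4.

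Between the first 3 days no gene of the set was called by limma. In day 2 against day 1, 18 of 30 were lower, against 55.4% of all genes, and 0.201% of all genes were called. An unadjusted p under 0.05 was found for 1 of the 30 and for 1389 of all 19938 genes. In this comparison 4 lay with all arrays below those of day 1 and 0 above, against 4.63% and 5.41% of all genes. In day 3 against day 2, 21 were higher, as were 11286 of all 19938 genes. Of the 30, 4 had an unadjusted p under 0.05, and 0 of all 19938 genes were called, with 961 at an unadjusted p under 0.05. Cpt1a, Hadhb and Pdk4 had all day 3 arrays above those of day 2, against 9.05% of all genes. In day 3 against day 1, 17 were higher, as were 10342 of all 19938 genes, and 0.351% of all genes were called. An unadjusted p under 0.05 was found for 6 of the 30 and for 2409 of all 19938 genes. Cpt1a and Acadl lay wholly above day 1, against 7.08% of all genes, and Acaa1a, Eci1 and Vnn1 wholly below, against 4.96%.

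Outside the set, 27 of 30 further PPAR alpha targets could be measured, and against control 1 was called, on day 1, when 3.94% of all genes were called. Retsat, a retinol saturase, was read at 9.51, 9.48 and 10.24 in controls and at 8.39, 8.20 and 8.84 on day 1, with no overlap. It fell by 1.27 on the log2 scale on day 1 (SE 0.21; adjusted p = 0.00375) and had -0.76, -0.69 and -0.10 on days 2 to 4 (0.0951, 0.108 and 0.920). The medians of the 27 were -0.10, -0.07, -0.04 and 0.04 on days 1 to 4, and 4, 3 and 7 of them had an unadjusted p under 0.05 on days 2 to 4, when limma called none; over all 19938 genes these numbers were 2370, 3226 and 1927. Fabp1, the liver-type fatty acid binding protein, had positive differences of 1.33, 1.19 and 1.4 on days 2 to 4 (SE 0.59; adjusted p of 0.386, 0.354 and 0.469).

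Peroxisomal oxidation genes outside the set lay lower most often on day 1. Of 13 measured, 12 were below 0 on day 1, against 51.8% of all genes, and 7 had all arrays below all controls, against 8.51%. On days 2 to 4, 10, 8 and 5 were below 0, against 56.7%, 53.2% and 47.9% of all genes. All arrays lay below all controls for 5, 4 and 1 of the 13 on these days, against 9.44%, 9.90% and 6.16%. They lay above all controls for 0, 0, 1 and 1 on days 1 to 4, against 6.08%, 8.09%, 12.3% and 12.1%. The medians of the 13 were -0.35, -0.18, -0.11 and 0.08 on days 1 to 4. Limma called 3 lower on day 1, against 1.94% of all genes, and none on days 2 to 4, when 2, 4 and 2 had an unadjusted p under 0.05, against 2370, 3226 and 1927 of all 19938 genes. The 3 were Pecr, a trans-enoyl-CoA reductase, at -0.85 ± 0.18 (SE; adjusted p = 0.0169), Acox2, an acyl-CoA oxidase of branched chains and bile acid precursors, at -0.57 ± 0.14 (0.0335), and Acox3, another oxidase of branched chains, at -0.40 ± 0.08 (0.0116). Pecr lost its call without control replicate 3 (0.0828), Acox2 without replicate 1 of day 1 (0.125), replicate 1 of day 2 (0.0508), replicate 3 of day 3 (0.0503), control replicate 1 (0.125) or control replicate 3 (0.137), whereas Acox3 kept its call without each of the 15 arrays.

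Among 21 further genes of fatty acid handling, not all of them mitochondrial, 2 were called lower on day 1, against 1.94% of all genes. They were Eci3 at -1.19 ± 0.26 (SE; adjusted p = 0.0187) and Acot13 at -0.48 ± 0.11 (0.0299), so that the isomerase genes Eci1 and Eci3 were called in opposite directions on the same day. Eci3 lost its call without replicate 1 of day 1 (0.0628) or 2 (0.0544) or control replicate 2 (0.0802) or 3 (0.0878), and Acot13 without control replicate 1 (0.105) or 3 (0.0980). Acot7, a cytosolic thioesterase, was the 1 gene of the list called on days 2 and 3, higher at 0.54 and 0.64 (0.0373 and 0.0137), against 1.52% and 1.72% of all genes. Without single arrays its day 3 call was lost for control replicate 2 (0.0582) and control replicate 3 (0.0704), and its day 2 call for 8 arrays (0.050 to 0.180), namely replicates 1 and 2 of day 2, replicate 2 of day 3, all RANKL day 4 arrays and control replicates 2 and 3. Of 4 genes of ketone metabolism, Bdh1, the mitochondrial hydroxybutyrate dehydrogenase, was called higher on day 1 at 0.52 ± 0.09 (0.00628), a call that held without each of the 15 arrays but not with the values as deposited (0.0527), median centring (0.166) or only the 2 groups fitted (0.106).

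Between days, 4 genes of these lists were called, all higher than on day 1. On day 4, when 1.04% of all genes were called higher than on day 1, these were Retsat at 1.16 ± 0.21 (SE; adjusted p = 0.0161), Gpd1, the cytosolic glycerol phosphate dehydrogenase, at 0.57 ± 0.11 (0.0177), Acox2 at 0.96 ± 0.14 (0.00471) and Acot13 at 0.62 ± 0.11 (0.0167). Acox2 was already higher on day 3 than on day 1, by 0.95 ± 0.14 (0.00723), where 0.351% of all genes were called in either direction. Each of these differences was seen with no overlap of arrays, and none was called when only the 2 groups were fitted (0.107 to 0.215). Both Acox2 calls held without each of the 15 arrays. Without replicate 1 of day 4 the calls of Retsat (0.103), Gpd1 (0.117) and Acot13 (0.103) were lost, Retsat and Gpd1 also without replicate 2 of day 4 (0.0514 each) or replicate 1 of day 1 (0.0627 and 0.0663), and Retsat without replicate 2 of day 1 (0.0599).

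Of 19 genes for the receptor's relatives, partners and coregulators, 2, 2, 2 and 1 were called on days 1 to 4, where 3.94%, 2.57%, 2.96% and 0.908% of all genes were called, and the calls ran in both directions. Ppard, the related receptor PPAR delta, was read at 11.03, 10.87 and 10.69 in controls and at 10.32, 10.22 and 10.36 on day 1, and fell by 0.56 (SE 0.13; adjusted p = 0.0305). Its arrays also lay below all controls on days 3 and 4, at 10.56, 10.16 and 10.55 and at 10.41, 10.39 and 10.53. Rxra, the retinoid X receptor alpha with which PPAR alpha pairs, was read at 10.25, 10.04 and 10.09 in controls, and its arrays lay below these on all 4 days. It fell by 0.43 on day 2 (0.0390) and by 0.43 on day 3 (0.0371), with -0.31 on day 1 (0.127) and -0.23 on day 4 (0.486). With the values as deposited neither Rxra call held (0.157 on both days), nor did they with median centring (0.300 and 0.280). Sirt3, a mitochondrial deacetylase, fell by 0.47 on day 1 (0.0118) and by 0.40 on day 3 (0.0367), and its arrays lay below all controls on days 1 to 3. Esrrg, an orphan nuclear receptor, rose by 0.62 on day 2 (0.0129), and Pparg, the relative known from fat cells, rose by 0.53 on day 4 (0.0219), from 7.86, 7.59 and 7.91 to 8.37, 8.24 and 8.34. All Esrrg arrays of days 1 to 4 lay above all controls, as did those of Pparg on days 1, 3 and 4. Summed intensity of 5 adipocyte markers stayed at 376 to 482 on all arrays, with none called.

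Each of these calls apart from that of Sirt3 on day 1 depended on several arrays. Ppard on day 1 was lost without any RANKL day 1 array or control replicate 1 or 2 (adjusted p 0.0609 to 0.115), Sirt3 on day 1 without control replicate 3 (0.0591), and Esrrg without replicate 1 of day 2 (0.0566) or 2 (0.0667) or control replicate 1 (0.0620). Pparg on day 4 was lost without any RANKL day 4 array or control replicate 2 (0.0545 to 0.106). Rxra on day 2 was lost without replicate 3 of day 1, replicates 1 or 2 of day 2, replicates 1 or 3 of day 4, or any control (0.0524 to 0.198), and on day 3 without replicate 1 of day 2, replicates 2 or 3 of day 3, replicate 3 of day 4 or any control (0.0513 to 0.164). Sirt3 on day 3 was lost without replicate 1 of day 2, any RANKL day 3 array, replicate 1 of day 4 or any control (0.0506 to 0.135).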

How the data were processed

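RNA of 15 samples was measured on Affymetrix arrays, and the table the authors deposited holds linear intensities of 28853 probe sets. The build mm9 is named in the submitters' processing notes; how probes were summarised and normalized was not given in the sources used. Log2 of the intensity (pseudocount 0) was quantile normalized over the 15 arrays, and the deposited log2 values without this step are an alternative. Symbols came from the platform annotation: 21789 probe sets carried 1 symbol, 1621 several and 5443 were not listed. Each of 19938 genes was represented by its one-symbol probe set of highest mean; 1 of the 30 genes had several. No filter on dim genes was applied.

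Group means were estimated from all arrays together with limma 3.58.1 in R 4.3.3, without a block (10 residual and 3.49 prior degrees of freedom). Two-sided p-values of each comparison were corrected over all genes (Benjamini-Hochberg), with calls at an adjusted p under 0.05. The number of arrays limits the precision.

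The genes, lists and tests were chosen with earlier results of these data known. Values on every array are given for genes of the set called in any comparison; genes outside it are named where called, up to 6 per list. Ppara, Creb3l3, Hadhb, Acadm, Acadl, Angptl4 and Pdk4 were shown by array, and Fabp1, Alpi, Treh, Anpep and Apoa1 were named, after their values were seen. Alternatives were other scalings, an offset of 16, omission of the dimmest 40% of genes, the mean of all probe sets, a trended robust prior, the replicate number as a block, fits of only the groups compared and omission of each array. Promoters were searched with Python 3.11.15.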

Additional observations from a re-analysis of the deposited data

Results flagged for a closer look

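Treatment times were compared directly for the 30 genes, and 3 differences between day 4 and an earlier day were called by limma. Acaa2 was higher on day 4 than on day 2 by 0.99 on the log2 scale (SE 0.18; adjusted p = 0.0222). Its mean was below that of the controls on day 2, at 9.74 against 10.44, and above it on day 4, at 10.72. Cpt1a was higher on day 4 than on day 2 by 0.60 (SE 0.12; adjusted p = 0.0361), from 10.80 to 11.40 with controls at 11.44. Etfb was higher on day 4 than on day 1 by 0.38 (SE 0.08; adjusted p = 0.0434), from 10.92 to 11.29 with controls at 11.20. Each was higher in 3 of 3 arrays of day 4 than in all arrays of the earlier day, and each call was lost when single arrays were left out, as given above with their values. No group of the study held 4 or more arrays, so single arrays were not tested as outliers.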

How the results depend on the processing

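The 7 differences called against control kept their sign under every alternative and without every array, and no called result reversed. In each of the 7 the arrays of the 2 groups did not overlap, so leaving out 1 array could hardly reverse the sign. Each of the 7 calls was lost without at least 1 of the arrays. The day 4 median of the 30, which has no test, changed sign without replicate 3 of day 4 (-6.83e-04). Of the 30 genes, the day 1 count of 2 became 1 for the values as deposited, and it was 0 with median centring or with only the 2 groups compared. The day 3 count of 2 became 0 with the values as deposited or with median centring. The count of 1 for day 4 against day 1 became 3, 4, 2, 0 and 0 with the values as deposited, median centring, omission of the dimmest 40%, a trended and robust prior and only the 2 groups, in that order. The day 4 median of 0.06 became 0.11 without normalization and 0.15 when arrays were centred on their medians. Genes of the 30 below all controls on day 3 numbered 5 under both of these scalings against 8. The share of all genes was 11.5% for the values as deposited and 9.51% for median centring, against 9.90%. Genes of the 30 above all day 1 arrays on day 4 numbered 17 with median centring against 11, where the share of all genes was 19.0% against 12.8%. Over all genes, median centring gave 480 calls on day 1 (179 higher and 301 lower, against 398 and 387), 311 on day 2 and 257 on day 3; the values as deposited gave 378 on day 3, and only the 2 groups 281 on day 1. With the replicate number as a block, the counts of the 30 were 1 on day 2, 0 on day 3, 1 for day 4 against day 2 and 5 in the F test; the calls lost were Acads (adjusted p = 0.0503) and Plin2 (0.0585) on day 2, Ehhadh (0.0549) and Plin2 (0.0557) on day 3 and Cpt1a in day 4 against day 2 (0.0508). Whether a replicate number joins arrays of different groups was not given in the sources used, and no test of pairing was run. Deviations of same-numbered arrays from their group means correlated at -0.20 to 0.50, with a median of 0.14. For arrays of different numbers the median was -0.07. Because deviations sum to 0 within a group, that value follows largely from the same-numbered one and adds no separate evidence. Of the same-numbered pairs, 19 of 30 were over 0.1, and 12 of 15 arrays correlated best with their own number of the 3. The main fit, without a block, takes no account of any such link. Omission of each array in turn gave 0 to 4 calls among the 30 on day 1, 0 to 4 on day 2, 0 to 3 on day 3, 0 to 0 on day 4, 0 to 1 for day 4 against day 3, 0 to 3 against day 1, 0 to 2 against day 2 and 1 to 4 in the F test. It gave medians of -0.37 to -0.17, -0.28 to -0.17, -0.19 to -0.06 and -6.83e-04 to 0.10 on days 1 to 4, and 445 to 1002, 283 to 717, 236 to 1188 and 95 to 336 calls over all genes. Cpt1a on day 2 and Acaa2 in day 4 against day 2 kept their calls in all 8 other settings. Angptl4 was called on day 1 without the dimmest 40% (adjusted p = 0.0335) and with the block (0.0390), Acaa2 on day 2 without the dimmest 40% (0.0342), with the trended prior (0.0471) and with only the 2 groups (0.0171), Ppara on day 2 with only the 2 groups (0.0372), and Ehhadh in day 4 against day 1 with the values as deposited (0.0210), median centring (0.0140) and without the dimmest 40% (0.0475). Outside the set, fits of only the 2 groups ended the calls of Retsat (0.0541), Acox3 (0.135) and Bdh1 (0.106), among others, and the values as deposited those of Rxra on days 2 and 3 (0.157 and 0.157). The cause of these changes was not tested. The counts of genes that do not overlap were recomputed under settings chosen after seeing the data.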
